A study of Mus musculus with 11 samples.

Results

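Elastic fibre and microfibril genes were followed in hearts of mice that overexpress the nucleosome-binding protein HMGN5 in the heart and of control mice, as adults and as newborns. The sample titles name the heart, and the labels' protocols name left ventricles. The rule named 10 genes, and 9 of them were measured: the microfibril glycoprotein genes Mfap2, Mfap4 and Mfap5, the elastin gene Eln, the cross-linking enzyme gene Lox, the elastin interface gene Emilin1 and the fibulin genes Fbln1, Fbln2 and Fbln5. The fibrillin gene Fbn1 is not analysed here. These 9 stood among 18194 genes with a value. Each gene was read by the probe set (a group of short probes against 1 transcript) with the highest mean over the 11 Affymetrix arrays among those annotated to 1 gene symbol, on the log2 scale.

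Adults gave 3 transgenic and 3 control arrays, and newborns 3 transgenic and 2 control arrays, each labelled as a biological replicate. All mice had the C57BL/6 strain background. The transgene held the whole cDNA of mouse Hmgn5 with a FLAG tag, placed in a vector with a floxed LacZ under the CAG promoter, and LacZ was removed by alphaMHC-cre, a recombinase made in heart muscle cells. Controls were labelled wild-type, so Hmgn5 and cre cannot be told apart. The labels give neither ages in days nor whether tissue was pooled.

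An elastic fibre has a core of cross-linked elastin inside a sheath of microfibrils. Microfibrils are built from fibrillins and carry associated glycoproteins such as MFAP2 and MFAP5, fibulins help to place elastin on them, and lysyl oxidases join the elastin chains. Elastin is made mostly late in fetal life and after birth and turns over very slowly, and in the heart wall elastic fibres lie in vessels, valves, the endocardium and the connective tissue between muscle cells, largely as products of fibroblasts and smooth muscle cells. The cre used here is known from heart muscle cells, and most of the genes described here from other cells of the ventricle.

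Over all genes, arrays of 1 group correlated at 0.975 to 0.997. Replicate 3 of both adult groups read 18S ribosomal RNA high, at 12.18 (transgenic) and 11.89 (control), against 7.64 to 8.58 on the other adult arrays and 10.05 to 10.53 in newborns. The nuclear RNA Malat1 followed, at 13.04 and 12.75 on these arrays against 8.15 to 9.33 on the other adult arrays. Adult results are therefore also given within these array sets. The 10 heart muscle markers averaged 13.27 to 13.54 on every array. Hmgn5 itself read 8.26 to 8.71 in transgenic adults and 8.44 to 8.77 in control adults, and 8.56 to 8.84 in transgenic and 8.81 to 8.85 in control newborns, but it is not known here whether its probe set reads the transgene, so it checks no label. In bulk tissue, fewer cells of a type and less RNA per cell cannot be told apart.

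**Figure D1:**
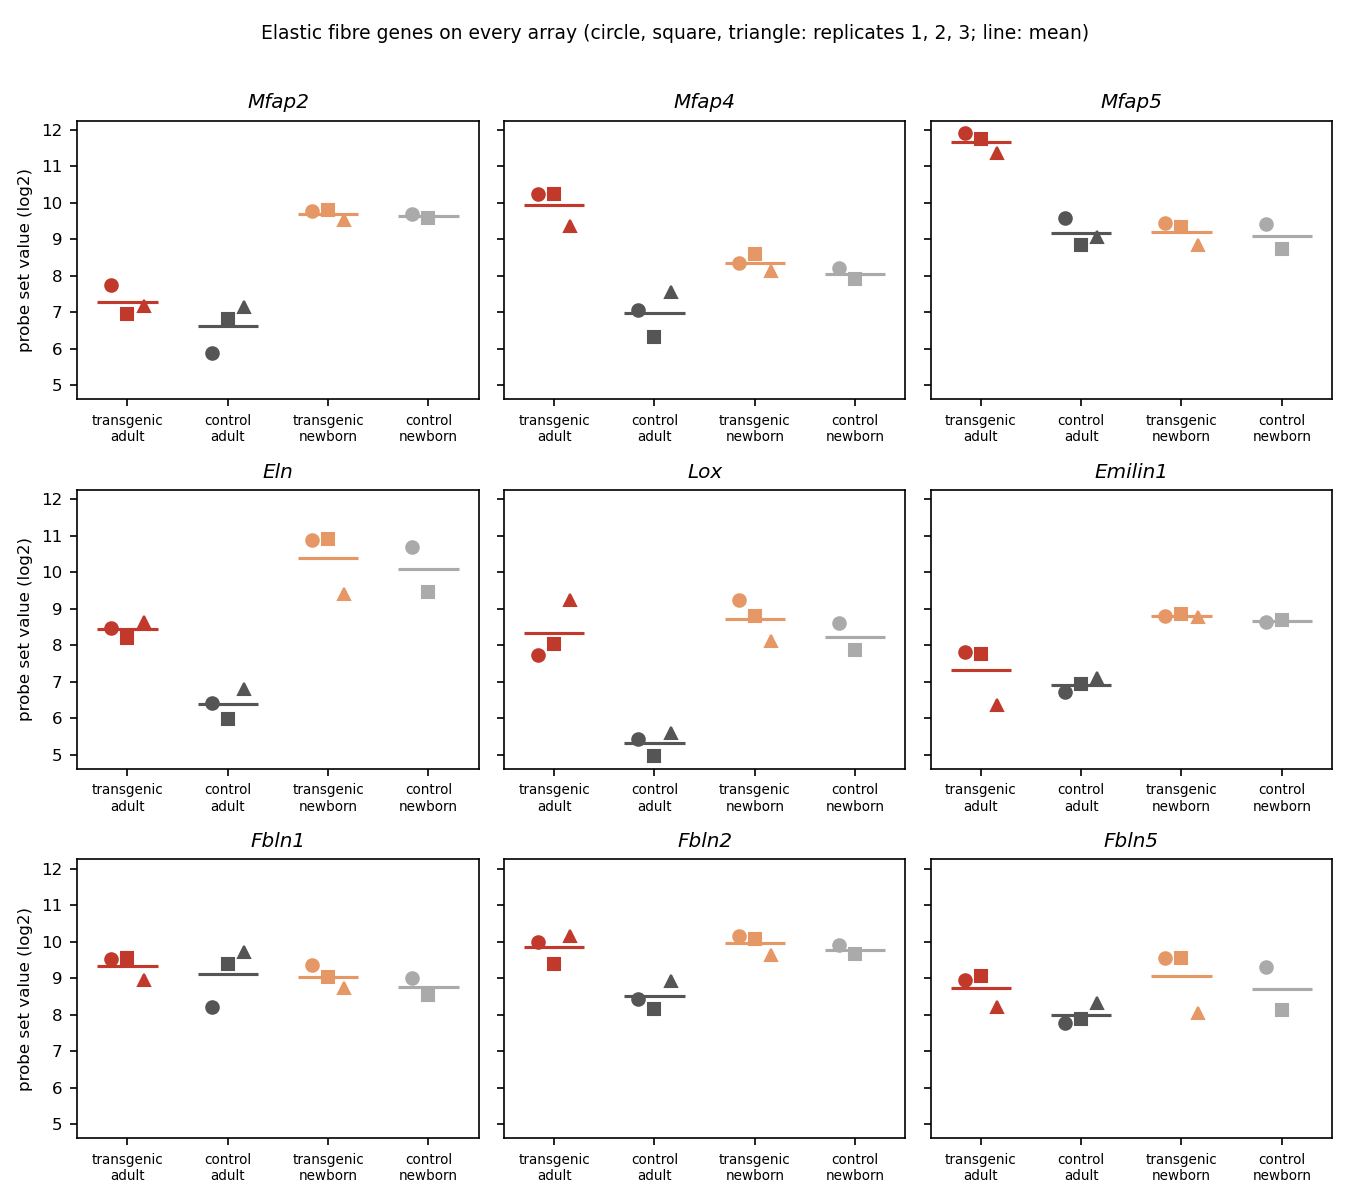
Log2 value of each of the 9 genes (one panel per gene) on every array, with the transgenic arrays left of the controls at each age. Symbols are replicates and lines are group means. In adults the transgenic and control arrays of Mfap4, Mfap5, Eln, Lox and Fbln2 do not overlap, while in newborns those of these 5 genes do. Over all genes 10.0% stand apart as higher in adults.

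In adult hearts, 5 of the 9 genes were higher in transgenic than in control mice and 0 were lower. They were Lox, Mfap4, Mfap5, Eln and Fbln2, with rises of 2.55-fold to 8.08-fold. Over all 18194 genes, 4.16% were called higher in this comparison (limma, Benjamini-Hochberg adjusted p under 0.05), 2.93% lower and 7.09% in either direction. The median log2 change of the 9 genes was 1.35, beside 0.0048 over all genes. All transgenic arrays lay above all control arrays for these 5 genes, as they did for 10.0% of all genes, and below them for 0 of the 9 and 7.94% of all genes.

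Of the 3 microfibril-associated genes, Mfap4 and Mfap5 rose. Mfap4 encodes a fibrinogen-domain protein that binds elastin and fibrillin. It read 10.24, 10.23 and 9.36 in transgenic adult hearts, against 7.06, 6.32 and 7.56 in control adult hearts. All transgenic values lay above all control values, and the log2 fold change was 2.96 (SE 0.31, limma adjusted p = 4.17e-04). Mfap5 encodes a microfibril glycoprotein (also called MAGP-2) that carries a cell-binding motif. It read 11.91, 11.76 and 11.36 in transgenic adults, against 9.57, 8.84 and 9.06 in control adults. The groups stood apart by 2.52 on the log2 scale (SE 0.25, limma adjusted p = 2.71e-04). Its other probe set gave nearly the same change, 2.61 (SE 0.24), with group means of 10.27 in transgenic and 7.66 in control adults. Mfap2 encodes the related glycoprotein MAGP-1. It read 7.74, 6.94 and 7.16 in transgenic adults, against 5.89, 6.81 and 7.13 in control adults. These groups overlapped, and the difference of 0.67 (SE 0.29, adjusted p = 0.222) did not pass. A further Mfap2 probe set differed by -0.026 (SE 0.14), and it passed with age in neither genotype.

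The elastin gene and that of the enzyme cross-linking its product both rose. Eln read 8.47, 8.20 and 8.63 in transgenic adults, against 6.42, 5.96 and 6.80 in control adults. The groups stood apart, with a log2 fold change of 2.04 (SE 0.42, limma adjusted p = 0.0140). The other Eln probe set did not show this: it averaged 6.41 in transgenic and 6.15 in control adults, a difference of 0.27 (SE 0.43). With age it changed by -1.64 (SE 0.43) in transgenic and by -1.32 (SE 0.48, not passing) in control hearts. With the mean of both probe sets the Eln change was 1.15 (adjusted p = 0.151), and without control adult replicate 2 it was 1.82 (adjusted p = 0.0648). Lox encodes lysyl oxidase, which oxidises lysines of elastin and collagen so that the chains can join. It read 7.74, 8.02 and 9.25 in transgenic adults, against 5.42, 4.96 and 5.59 in control adults. The groups stood apart by 3.01 on the log2 scale (SE 0.39, limma adjusted p = 0.00142). Among the 9 genes this change had the largest size, and its intervals overlapped those of Mfap4 and Mfap5. Of the other Lox probe sets, one rose by 0.52 (SE 0.12) from values below the 40th percentile of every array, and one differed by 2.02 (SE 0.73) without passing. Emilin1, whose product lies at the border between elastin and microfibrils, read 7.82, 7.76 and 6.37 in transgenic adults, against 6.72, 6.93 and 7.10 in control adults. Transgenic replicate 3 was the lowest of the 6 values while the other transgenic arrays were the highest. The difference of 0.40 (SE 0.31, adjusted p = 0.565) did not pass, whereas without transgenic adult replicate 3 it was 0.87 (adjusted p = 0.00130). The second Emilin1 probe set differed by 0.046 (SE 0.098).

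The 3 fibulins differed in their behaviour. Fbln2, a fibulin found in developing heart valves and vessel walls, read 9.99, 9.40 and 10.16 in transgenic adults, against 8.42, 8.17 and 8.91 in control adults. Its groups stood apart, with a log2 fold change of 1.35 (SE 0.24, limma adjusted p = 0.00660). Fbln5 encodes a fibulin needed for elastic fibre assembly in mice. It read 8.96, 9.05 and 8.21 in transgenic adults, against 7.78, 7.88 and 8.32 in control adults, and the difference of 0.75 (SE 0.42, adjusted p = 0.375) did not pass. Fbln1 encodes an elastin- and fibronectin-binding fibulin. It read 9.53, 9.56 and 8.95 in transgenic adults, against 8.22, 9.40 and 9.73 in control adults. The change of 0.23 (95% interval -0.53 to 0.99) did not pass, and without control adult replicate 1 it was -0.22. The other Fbln1 probe sets differed by 0.76 (SE 0.34) and 0.39 (SE 0.15), neither passing over all probe sets. The second probe sets of Fbln2 and Fbln5 lay below the 40th percentile of every array.

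Adult differences were also taken within each 18S array set. The calls rest on these same arrays, so a low replicate 3 difference itself makes a call less likely. Between the transgenic and control adults of replicates 1 and 2, the mean differences were 3.55 for Mfap4, 2.63 for Mfap5, 2.14 for Eln, 2.69 for Lox and 1.40 for Fbln2. Between the replicate 3 arrays, which is 1 against 1 and has no test, they were 1.80, 2.30, 1.83, 3.66 and 1.25 in the same order of genes. For the 4 genes not called, the replicate 3 difference was 0.026 for Mfap2, -0.78 for Fbln1, -0.10 for Fbln5 and -0.74 for Emilin1, against 0.99, 0.74, 1.18 and 0.96 in replicates 1 and 2. With the 18S set as a factor 5 members were again called, and without those arrays 6, the additional gene being Emilin1 at 0.96 (limma adjusted p = 5.65e-04). Over all genes 2625 and 2183 were called in these fits, against 1290 in the reported fit.

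**Figure D2:**
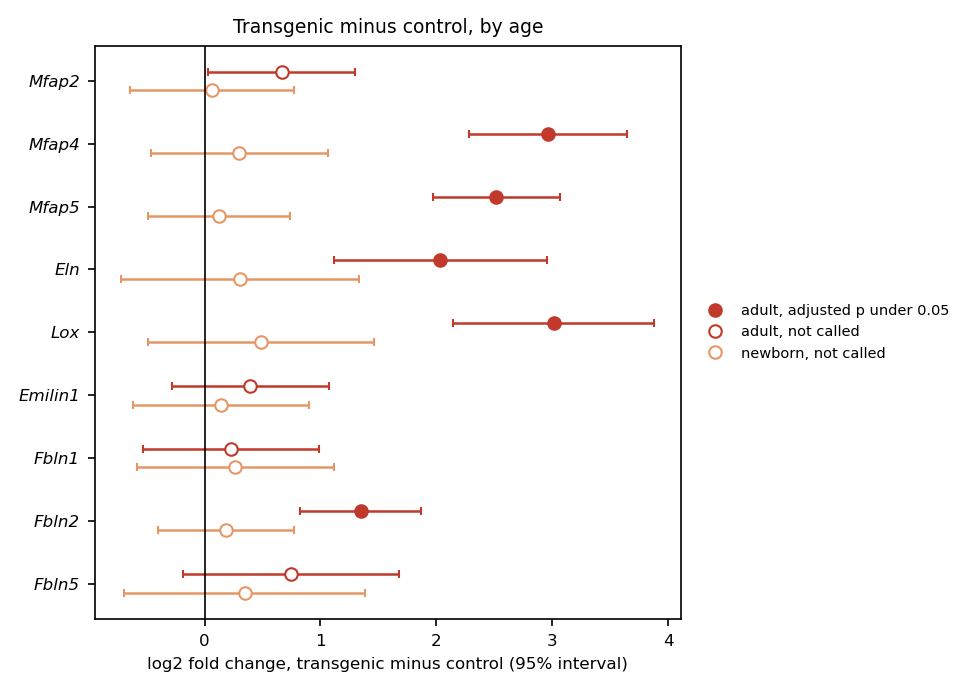
Log2 fold change, transgenic minus control, of each gene in adult and in newborn hearts (horizontal axis), with limma's 95% interval. Filled points passed an adjusted p under 0.05. In adults Lox reaches 3.01 and Fbln1 0.23, and in newborns no interval lies wholly on one side of 0.

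In newborn hearts 0 of the 9 genes passed, as did 0% of all 18194 genes (limma, adjusted p under 0.05), with 0 of the 9 and 198 of all genes at an unadjusted p under 0.05. The means of all 9 were slightly higher in transgenic newborns, by 0.065 for Mfap2 to 0.49 for Lox (SE 0.44), with a median of 0.27 beside 0.0040 over all genes. The 95% interval was -0.49 to 0.74 for Mfap5 and -0.48 to 1.46 for Lox. Eln read 10.88, 10.90 and 9.39 in transgenic newborns, against 10.70 and 9.47 in control newborns. Transgenic replicate 3 and control replicate 2 were thus lower than the other arrays of their groups by over 1 log2 unit. With 3 transgenic and 2 control arrays, the low array weighs more in the control mean. Fbln5 had the same form, with 9.56, 9.56 and 8.05 in transgenic newborns and 9.30 and 8.12 in control newborns. Lox read 9.24, 8.79 and 8.12 in transgenic newborns, against 8.60 and 7.86 in control newborns, and Mfap5 read 9.45, 9.34 and 8.84 against 9.42 and 8.74. By contrast Emilin1 lay within 8.76 to 8.85 in transgenic and 8.62 to 8.70 in control newborns. It was the 1 gene of the 9 whose newborn groups did not overlap, as for 11.1% of all genes in that direction. On the 2 low arrays the fibroblast list averaged 9.40 (transgenic) and 9.39 (control), against 9.57 to 9.65 on the other newborn arrays, and smooth muscle and pericyte markers 8.86 and 8.83, against 8.95 to 9.11. Their part in the spread of these genes was not tested.

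The transgenic effect differed between adults and newborns for 2 of the 9 genes, where 0.687% of all genes differed (0.445% with a higher effect in adults). Mfap5 differed by 2.39 (SE 0.37, limma adjusted p = 0.0196) and Mfap4 by 2.67 (SE 0.47, adjusted p = 0.0299). For Lox the difference was 2.53 (SE 0.59, adjusted p = 0.0959), for Eln 1.73 (SE 0.62, adjusted p = 0.335) and for Fbln2 1.17 (SE 0.36, adjusted p = 0.218), none of which passed. These calls depended on the arrays used. Mfap5 lost the call without control adult replicate 2 (adjusted p = 0.0550), transgenic newborn replicate 2 (0.0550) or 3 (0.0600) or control newborn replicate 1 (0.158). Mfap4 lost it without transgenic adult replicate 1 (0.0709) or 2 (0.0621), control adult replicate 2 (0.0529), transgenic newborn replicate 1 (0.0788), 2 (0.0695) or 3 (0.106) or either control newborn array (0.233 and 0.114). Without transgenic adult replicate 3 Lox passed as well, at 2.07 (adjusted p = 0.0316).

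In control hearts 6 of the 9 were lower in adults than in newborns and 0 were higher, where 18.1% of all genes were called lower, 14.9% higher and 33.0% in either direction (limma, adjusted p under 0.05). Eln averaged 6.40 ± 0.42 in adult controls (SD, n = 3) and 10.08 ± 0.87 in newborn controls (n = 2), a difference of -3.69 (SE 0.47), or 12.9-fold lower in adults. Mfap2 was 8.11-fold lower, at 6.61 ± 0.64 in adult and 9.63 ± 0.085 in newborn controls. Lox changed by -2.91 on the log2 scale (SE 0.44), Emilin1 by -1.74 (SE 0.34), Fbln2 by -1.28 (SE 0.26) and Mfap4 by -1.07 (SE 0.35, adjusted p = 0.0361). The other Lox probe sets did not pass over all probe sets, at -1.96 (SE 0.82, limma adjusted p = 0.100) and, from values below the 40th percentile, -0.23 (SE 0.13). The second Emilin1 probe set passed with a smaller change, -0.42 (SE 0.11). Mfap5 (0.074, SE 0.28), Fbln1 (0.34, SE 0.39) and Fbln5 (-0.72, SE 0.47) did not pass. The control newborn arrays of Eln differed (10.70 and 9.47), and its change was -4.30 without control newborn replicate 2 and -3.07 without control newborn replicate 1, passing in both. The Mfap4 call was lost without control adult replicate 1 (adjusted p = 0.0649) or 2 (0.0996), transgenic newborn replicate 1 (0.0523) or control newborn replicate 1 (0.219) or 2 (0.0866), and the Fbln2 call without control newborn replicate 1 (0.0518).

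In transgenic hearts 5 of the 9 passed, 3 lower and 2 higher in adults, where 19.7% of all genes were called in each direction and 39.4% in either. Mfap2 averaged 7.28 ± 0.41 in adult and 9.70 ± 0.16 in newborn transgenic hearts (SD, n = 3 each), a change of -2.42 (SE 0.29, limma adjusted p = 1.11e-04). Eln changed by -1.96 (SE 0.42) and Emilin1 by -1.49 (SE 0.31). Mfap5 was higher in adults, at 11.68 ± 0.28 against 9.21 ± 0.33 in newborns, by 2.47 (SE 0.25, adjusted p = 3.50e-05), and Mfap4 by 1.59 (SE 0.31). Lox (-0.38, SE 0.39) and Fbln2 (-0.11, SE 0.24) did not pass in transgenic hearts, with 95% intervals of -1.25 to 0.49 and -0.64 to 0.41. The transgenic adult mean of Lox was 8.33, beside 8.23 in control newborns and 5.32 in control adults, and that of Fbln2 was 9.85, beside 9.78 and 8.50. The probe set standing for Fbln1 did not pass (0.31, SE 0.34), whereas its other probe sets were higher in adult than in newborn transgenic hearts by 1.52 (SE 0.34, adjusted p over all probe sets = 0.00790) and 0.83 (SE 0.15, adjusted p = 0.00212). Without transgenic adult replicate 3, Lox passed as lower in adults, at -0.84 (adjusted p = 0.0496). Of the other Lox probe sets, one differed by -0.48 (SE 0.73) without passing. The one below the 40th percentile of every array was higher in adults by 0.48 (SE 0.12, adjusted p over all probe sets = 0.0121). The second Emilin1 probe set changed by -0.63 (SE 0.098). The transgenic minus control age change of a gene is the same quantity as the difference between ages above, and among the 9 it was called for Mfap4 and Mfap5. The comparisons share arrays, and age cannot be told apart from array processing, since the newborn arrays had an 18S signal between those of both adult sets.

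**Figure D3:**
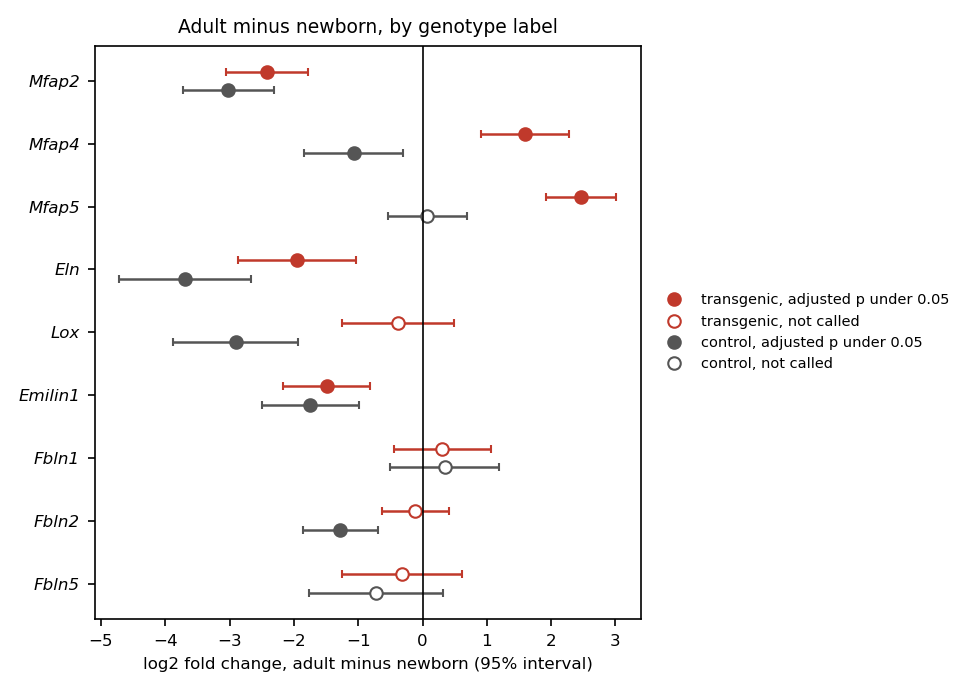
Log2 change with age, adult minus newborn, of each gene in transgenic and in control hearts (horizontal axis), with limma's 95% interval. Filled points passed an adjusted p under 0.05. Eln falls by 3.69 in control and by 1.96 in transgenic hearts, while Mfap5 lies at 2.47 in transgenic and at 0.074 in control hearts.

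By profile, the genes formed no single pattern. The likeness of 2 genes was taken as the root mean square difference of their log2 values over the 11 arrays, each centred on its own mean. Mfap4 and Mfap5 were each other's nearest member (0.62), as were Fbln2 and Fbln5 (0.53), and Mfap2 and Emilin1 (0.68). Mfap2 and Mfap5 stood farthest apart, at 2.15, although their products are related glycoproteins. Among the 9826 other genes with a mean of at least 6, Mfap5 was nearest to the tetraspanin gene Tspan17 (0.31), the large matrix protein gene Svep1 (0.31) and Ttll7 (0.32). For Mfap4 the nearest were Timp1 (0.38), Ccn2 (0.39) and Tgfb3 (0.47). Lox lay nearest to Cd24a (0.47), Uchl1 (0.57) and the periostin gene Postn (0.63), and Fbln2 to Smoc1 (0.18), Rtn4 (0.23) and the gelatinase gene Mmp2 (0.26).

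Other genes of elastic fibre assembly rose more often than they fell in transgenic adults. Of 26 measured assembly and microfibril partner genes 8 were higher, 2 lower and 16 not called (limma, adjusted p under 0.05), with a median of 0.45. Over all genes 4.16% were called higher and 2.93% lower. Without single arrays 5 to 15 were higher, the lowest count without transgenic adult replicate 2 and the highest without transgenic adult replicate 3. Ltbp2, whose latent TGF-beta binding protein sits on microfibrils, averaged 8.13 in transgenic and 4.77 in control adults, a log2 fold change of 3.37 (SE 0.48). The proteoglycan gene Bgn rose by 1.70 (SE 0.24), the microfibril-binding Adamtsl2 by 1.70 (SE 0.30) and Adamtsl5 by 0.83 (SE 0.14). Ltbp3 rose by 1.10 (SE 0.21) and the multimerin gene Mmrn1 by 1.08 (SE 0.23). The genes that fell were Efemp1 (fibulin-3), at 4.67 in transgenic and 6.86 in control adults (-2.19, SE 0.51), and Emilin2, a relative of Emilin1 (-1.47, SE 0.17). The Efemp1 call was lost without control adult replicate 1 (adjusted p = 0.0717) or 2 (0.0643), and the Mmrn1 call without transgenic adult replicate 2 (0.0526). The elastin-binding lysyl oxidase gene Loxl1 averaged 9.80 in transgenic and 8.69 in control adults, and its difference of 1.11 (SE 0.34, adjusted p = 0.0777) did not pass. Fbn2, the fibrillin of fetal tissue, averaged 5.36 in transgenic and 4.83 in control adults (0.53, SE 0.15, adjusted p = 0.0600), and 10.24 in transgenic and 10.05 in control newborns. With age it changed by -4.88 (SE 0.15) in transgenic and by -5.22 (SE 0.17) in control hearts.

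Genes whose products cut elastin and microfibrils, or block such enzymes, were higher in transgenic adults in 9 of 17 cases and lower in 0, with a median of 0.60. The share of all genes was 4.16% higher and 2.93% lower. Without single arrays 5 to 8 were called, the fewest without control adult replicate 2. The metalloproteinase inhibitor gene Timp1 rose by 3.15 (SE 0.36), with an adult minus newborn difference of effects of 3.07 (SE 0.54, adjusted p = 0.0299), and Timp2 by 0.80 (SE 0.16). Among the proteases, the cathepsin genes Ctsk and Ctss rose by 1.47 (SE 0.23) and 0.97 (SE 0.22), Mmp2 by 1.06 (SE 0.19), Mmp3 by 1.41 (SE 0.34) and the pancreatic-type elastase gene Cela1 by 1.29 (SE 0.16). The cathepsin inhibitor gene Cst3 rose by 0.58 (SE 0.11). Some of these calls were lost without single arrays: Ctss without transgenic adult replicate 1 or 2 or control adult replicate 2 or 3, Timp2 without transgenic adult replicate 1 or control adult replicate 2, and Mmp3 without control adult replicate 1 or 2 or transgenic newborn replicate 2. The remaining called gene, the cathepsin gene Ctsl (0.71, SE 0.19), was called in 6 of 23 alternatives. Among the fits without single arrays, Ctsl kept the call only without transgenic adult replicate 2. Macrophage elastase, Mmp12, averaged 3.47 in transgenic and 3.20 in control adults, and was not called. Of 12 elastin receptor and integrin genes 1 rose, Itgb5 by 0.92 (SE 0.15), 1 fell, Itgb6 (-1.46, SE 0.31), and 10 were not called. In newborns 0 of the 55 genes of these 3 lists were called. The lists' members were chosen with earlier results of these data known.

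**Figure D4:**
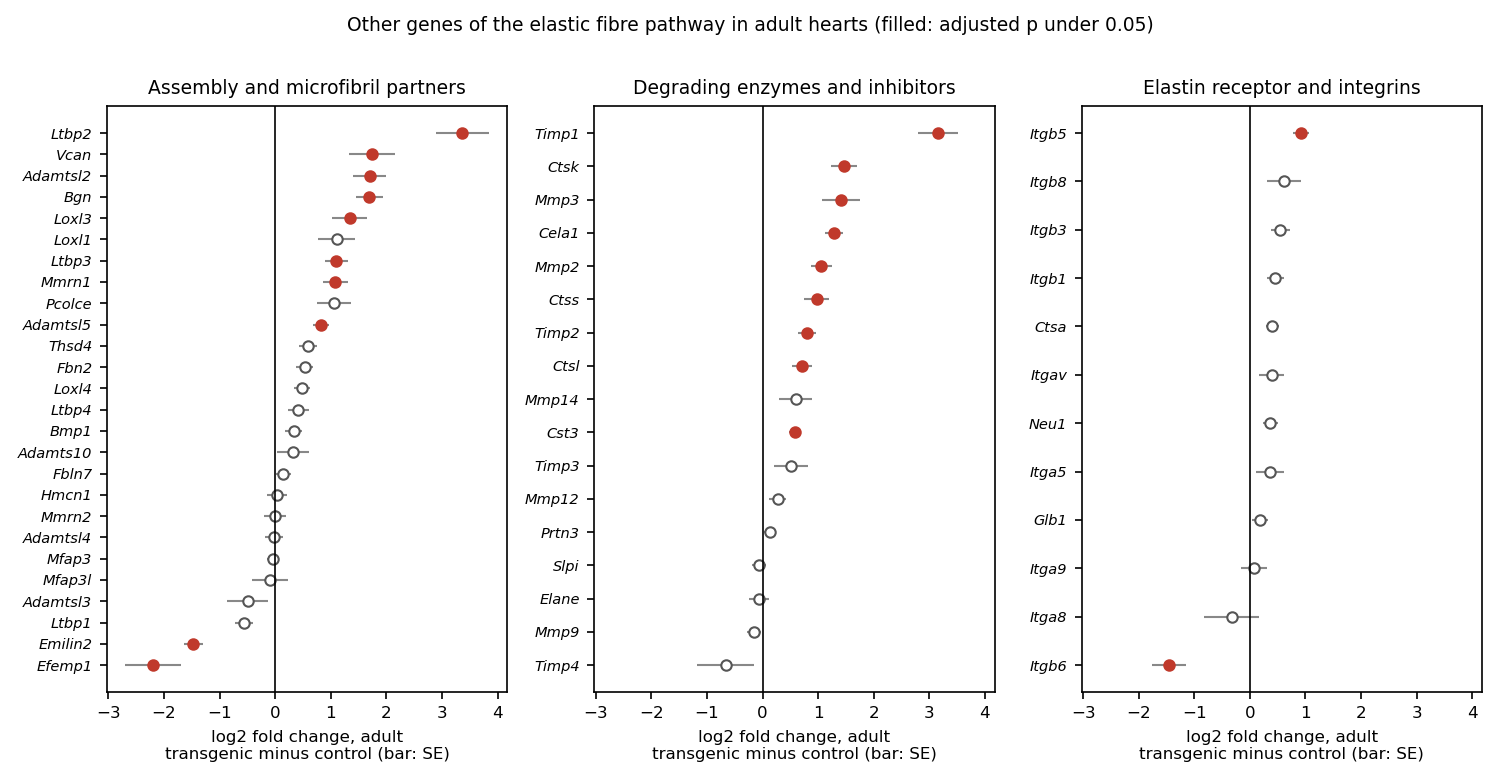
Log2 fold change, transgenic minus control, in adult hearts for other genes of the elastic fibre pathway, in 3 lists (bars are limma's SE, filled points passed an adjusted p under 0.05). Ltbp2 at 3.37 and Timp1 at 3.15 lie farthest to the right, and Efemp1 at -2.19 farthest to the left.

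Markers of cells that make elastic fibres were read on the same arrays. In transgenic adults 4.16% of all genes were called higher and 2.93% lower. Of 16 fibroblast markers 2 were higher and 0 lower, Pcolce2 (1.09, SE 0.24) and Tcf21 (0.82, SE 0.18), and the list averaged 9.77, 9.84 and 8.91 in transgenic against 9.03, 8.77 and 9.41 in control adults. Transgenic replicate 3 was thus lower than control replicate 3 for this list. In that comparison of 1 array against 1, which has no test, Fbln1 (-0.78), Emilin1 (-0.74) and Fbln5 (-0.10) were lower too, Mfap2 differed by 0.026, and Lox, Mfap5, Eln, Mfap4 and Fbln2 were higher by 1.25 to 3.66. Pcolce2 and Tcf21 each lost the call without transgenic adult replicate 1 or 2 or control adult replicate 2, and Tcf21 also without control adult replicate 1. Without the 18S array set 11 of the 16 fibroblast markers were called higher, without transgenic adult replicate 3 alone 8, and 0 without transgenic adult replicate 1 or 2 or control adult replicate 2. All genes called in either direction moved as well, from 1290 to 2183 without the 18S set and 2267 without transgenic adult replicate 3. They numbered 912 and 1058 without transgenic adult replicates 1 and 2, and 746 without control adult replicate 2. Of 14 smooth muscle and pericyte markers 3 were higher, Cnn1 (1.83, SE 0.19), Acta2 (1.56, SE 0.21) and Cspg4 (0.77, SE 0.18), and 2 lower, the channel genes Abcc9 and Kcnj8. The list means were 8.43 to 8.58 in transgenic and 8.13 to 8.36 in control adults. The mature smooth muscle myosin gene Myh11 averaged 7.15 in transgenic and 7.05 in control adults. The Cspg4 call was lost without transgenic adult replicate 1 or control adult replicate 2 or 3.

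Among 10 endocardial and valve markers 3 were higher and 0 lower, namely Postn (3.18, SE 0.35), the lubricin gene Prg4 (2.76, SE 0.50) and Npr3 (0.92, SE 0.19), with list means of 7.59 to 7.80 in transgenic and 6.54 to 6.97 in control adults. Over all genes 4.16% were higher. The other 7 markers were not called, from -0.31 for Hapln1 to 0.70 for Tbx20, with Nfatc1 at 0.34 and Plvap at 0.56. Postn and Prg4 thus weighed most in the list means. Without transgenic adult replicate 3, 6 of the 10 were called higher, and without control adult replicate 2 Npr3 lost the call. Macrophage markers had 4 of 12 higher (C1qa, C1qc, Cd14 and Mrc1) and 0 lower, with list means of 8.16 to 8.76 in transgenic and 7.93 to 8.23 in control adults. Without transgenic adult replicate 3 the count was 8, and it was 0 without transgenic adult replicate 1 or without control adult replicate 2 or 3. All genes called numbered 2267 in the first of these fits and 746 to 1004 in the others, against 1290. Of 9 epicardial markers Wt1 was the 1 that rose (0.68, SE 0.16), but it was called in 12 of 23 alternatives and lost the call without transgenic adult replicate 1 or 2, control adult replicate 1 or 3, transgenic newborn replicate 2 or either control newborn array, and the list means overlapped, at 4.95 to 5.31 in transgenic and 5.01 to 5.15 in control adults. The endothelial list (Vwf higher, Kdr lower of 11) overlapped as well, at 8.99 to 9.19 in transgenic and 9.05 to 9.10 in control adults, and the calls of Vwf and Kdr were lost without transgenic adult replicate 1, that of Vwf also without control adult replicate 2. Atrial markers (Myl4, Myl7, Sln) averaged 10.53, 6.59 and 6.52 in transgenic and 10.10, 10.38 and 12.24 in control adults, against 12.50 to 12.87 in newborns. The adult arrays thus differed widely in these markers, and whether atrial tissue was present was not tested. With the mean of the atrial markers as a covariate, 3 of the 9 members were called in adults, Mfap4, Mfap5 and Fbln2, while Eln (2.30, adjusted p = 0.115) and Lox (2.62, adjusted p = 0.0623) lost the call. Over all genes 238 were called in this fit, against 1290, so the lost calls are not particular to Eln and Lox. Of heart muscle, adipocyte and lung markers 0 were called, and of 8 skeletal muscle markers 1, Tnnt3 (0.84, SE 0.18), which lost the call without transgenic adult replicate 1 or control adult replicate 3. Adipocyte markers were uneven, however, averaging 5.91 on control adult replicate 3, against 4.30 and 4.27 on control adult replicates 1 and 2. In transgenic adults they averaged 3.91 to 4.06. The part of these cell types in the changes was not tested.

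**Figure D5:**
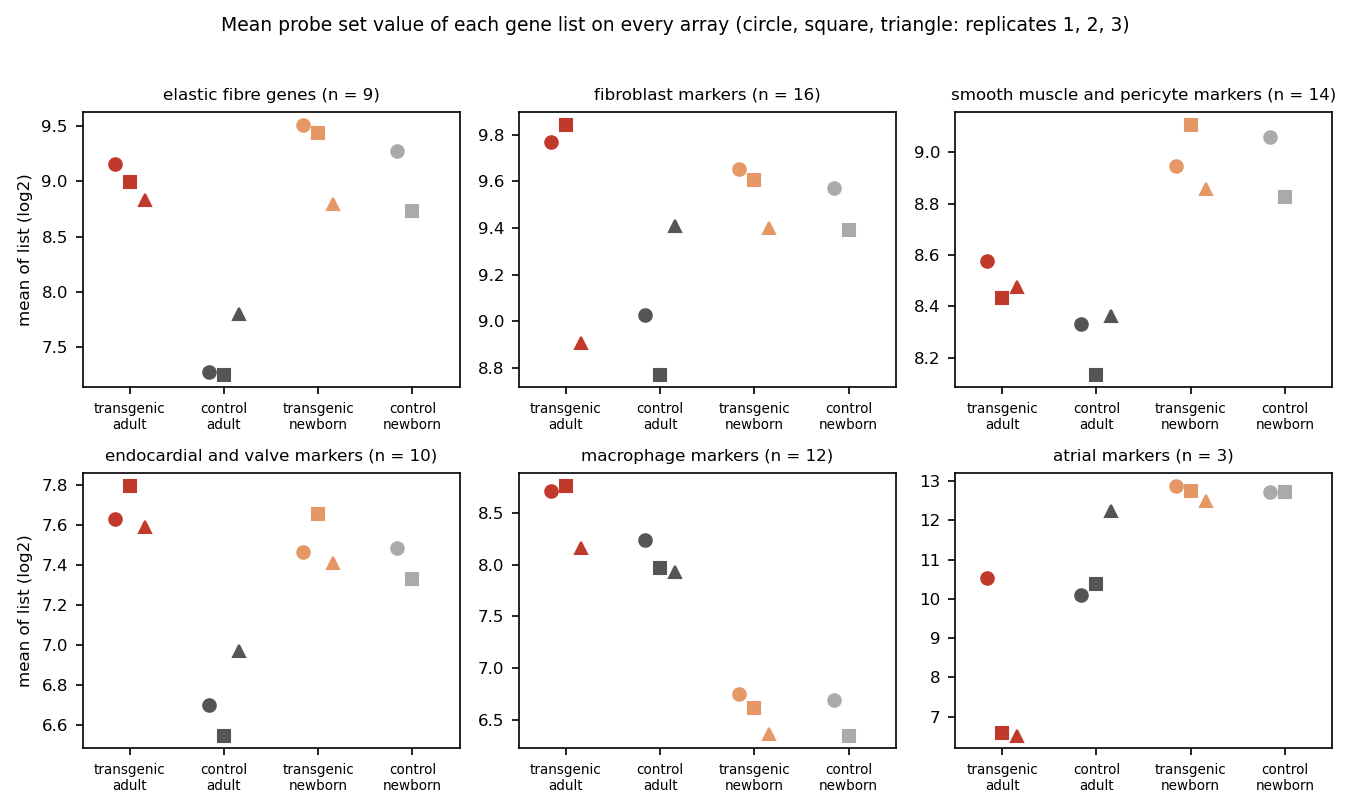
Mean log2 value of the 9 elastic fibre genes and of 5 lists of cell type markers on every array (vertical axes differ between panels; symbols are replicates). The elastic fibre genes average 8.83 to 9.15 in transgenic and 7.25 to 7.80 in control adults, and the fibroblast list is lower on transgenic than on control replicate 3.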

How the data were processed

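Total RNA of left ventricles was labelled and hybridised to Affymetrix mouse arrays, per the labels' protocols. The deposited table holds the authors' log2 expression values. The submitters' processing notes name RMA, affy and limma, with neither versions nor roles. Near-equal array medians (5.12 to 5.18) leave a common shift of most transcripts undetectable. Of 45101 probe sets, 34958 had 1 gene symbol in the platform annotation. With a mean for each group, 18194 genes were fitted across the 11 arrays in limma 3.58.1 under R 4.3.3 (7 residual and 3.85 prior degrees of freedom), with Benjamini-Hochberg adjustment over all genes and 2-sided tests. The fitting was tested on simulated data. Arrays hold no read depth, so their number limits precision. The p-values set a difference of group means against the spread between these samples, estimated jointly over the 4 groups. The members, lists and tests were chosen with earlier results of these data known. Named genes were the members, up to 8 called genes per list by smallest p, Fbn2, Efemp1, Loxl1 and Ltbp2, and the 3 nearest profiles of the 4 members with the smallest adult p. Mmp12, Ctsl, Myh11, Nfatc1, Plvap, Tbx20, Hapln1, Col2a1, Col9a1, Matn1 and Malat1 were named after their values were seen. Alternatives were the replicate block, dropping genes not above the 40th percentile on 2 or more arrays, other probe set choices, variance models, array weights, only the compared groups, other scalings, the 18S array set, an atrial covariate and leaving out each array.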

Additional observations from a re-analysis of the deposited data

Results flagged for a closer look

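The transgenic effect differed between adults and newborns by the test of the difference itself for 2 elastic fibre genes. For Mfap4 the effect in adults exceeded that in newborns by 2.67 on the log2 scale (limma adjusted p = 0.0299), with effects of 2.96 in adults and 0.30 in newborns. For Mfap5 it did so by 2.39 (adjusted p = 0.0196), with effects of 2.52 and 0.13. In adults all 3 transgenic arrays were above all 3 control arrays for both genes, as for 10.0% of all genes. Both calls depended on the arrays and settings used: Mfap4 was called in 12 of 22 alternatives and Mfap5 in 17 of 22. Both were lost with the atrial covariate and without control adult replicate 2 or transgenic newborn replicate 2 or 3. Both were also lost without control newborn replicate 1, which leaves 1 array in that group. With all probe sets tested Mfap4 did not pass (limma adjusted p = 0.0607). Groups of 2 or 3 arrays were not tested for single outlying arrays.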

How the results depend on the processing

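The 9 genes were refitted under 23 alternatives, 11 of which left out 1 array. Of 1026 refitted changes, 957 kept their direction and side of the threshold. In adults Mfap4, Mfap5 and Fbln2 were called in 23 of 23 alternatives, Lox in 22 and Eln in 20. Members called in adults numbered 4 to 6 without single arrays and 3 with the atrial covariate, against 5. In newborns 0 were called under every alternative. With only the compared groups fitted, the difference between ages has no value. For the difference between ages, against 2, the count was 0 to 3 without single arrays, 1 with all probe sets tested, 4 with the 18S set as a factor, 4 without it and 0 with the atrial covariate. For age in transgenic hearts it was 5 to 6 without single arrays and 2 with the atrial covariate, against 5, and in controls 4 to 6, against 6. All genes called in adults numbered 1290, against 373 with only the compared groups fitted, 238 with the atrial covariate, 746 (without control adult replicate 2) to 2267 (without transgenic adult replicate 3) without single arrays, 2625 with the 18S factor and 2183 without those arrays. In the reported fit all genes called numbered 125 for the difference between ages, 7161 for age in transgenic and 6006 in control hearts. In adults the number of all genes called thus moved between the alternatives as well, so a changed member count there is not particular to these genes. For the difference between ages and for age, the numbers over all genes are given for the reported fit alone. Whether a changed member count is particular to these genes was not tested there. The cause of these shifts was not tested.

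Some changes that were not called turned direction. With the mean of probe sets these were Mfap2 in newborns (-0.062), Fbln1 in the difference (0.31), Fbln2 with age in transgenic hearts (0.033) and Mfap5 with age in controls (-0.11). With array weights they were Fbln1 in the difference (0.075) and Mfap5 with age in controls (-0.024), and with cyclic loess Fbln2 with age in transgenic hearts (0.024). Fbln1 in the difference was 0.47 without the 18S set and 0.48 with the atrial covariate, under which Fbln2 (0.39) and Fbln5 (0.36) turned with age in transgenic hearts. Without single arrays, Fbln1 ranged from -0.22 to 0.54 in adults and from -0.48 to 0.27 in the difference, Fbln5 from -0.18 to 0.99 in the difference and from -0.24 to 0.93 in newborns, Emilin1 from -0.00086 to 0.72 in the difference, Mfap5 from -0.21 to 0.47 in newborns and from -0.27 to 0.42 with age in controls, Eln from -0.31 to 0.92 in newborns and Fbln2 from -0.28 to 0.11 with age in transgenic hearts.

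Replicate numbers are shared between groups, but same-numbered adult arrays did not all deviate together (correlations of 0.31, -0.056 and 0.45), so they were not treated as pairs. With the replicate block 5, 0, 2, 5 and 5 members were called in adults, in newborns, in the difference and with age in transgenic and control hearts, and Mfap4 lost its call with age in controls (-1.03, adjusted p = 0.0558). Of 52 other named or listed genes called in adults, 33 to 51 kept the call without single arrays, 22 with only the compared groups fitted and 20 with the atrial covariate.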

Other observations

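Genes known from cartilage and tendon stood beside the elastic fibre genes in transgenic adult hearts. Of 8 such markers 4 were higher and 0 lower (limma, adjusted p under 0.05), where 4.16% of all genes were higher and 2.93% lower. The cartilage oligomeric matrix protein gene Comp averaged 9.02 in transgenic and 6.05 in control adults, a log2 fold change of 2.97 (SE 0.48). The tendon gene Tnmd rose by 2.50 (SE 0.54), the collagen-binding proteoglycan gene Fmod by 2.33 (SE 0.51) and the chondrogenic transcription factor gene Sox9 by 0.59 (SE 0.13). The cartilage collagen genes Col2a1 and Col9a1 and the matrilin gene Matn1, defining markers of cartilage, averaged 4.27, 4.31 and 3.12 in transgenic adults and 4.38, 4.29 and 2.97 in control adults, and were not called. Without control adult replicate 2, Tnmd, Fmod and Sox9 lost the call, and 2 of the 8 markers were called without transgenic adult replicate 1 or 2 or control adult replicate 3.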
